A study of Mus musculus with 6 samples.

Results

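Genes of Wnt secretion and of secreted Wnt inhibitors were examined in sorted muscle and epithelial cells of the fetal mouse trachea. The set has 10 genes, taken by symbol from the 23478 genes of the count table: Wls and Porcn for secretion, Sfrp1, Sfrp2, Sfrp5 and Frzb of the secreted frizzled-related family, Dkk1, Dkk2 and Dkk3 of the Dickkopf family, and Wif1. All 10 were in the table and all 10 passed the filter on low counts. RNA came from tracheas at embryonic day 13.5, with 3 libraries of muscle and 3 of epithelium. All embryos carried Bmp4 f/f, floxed alleles for which the labels name no Cre, and the reporter gamma SMA eGFP, and all libraries are titled control. Muscle cells were taken by eGFP, which is driven by the gamma smooth muscle actin gene, and epithelial cells by surface Epcam. The labels do not say whether replicates came from separate litters or pools, so p-values measure the spread between these libraries, which may be technical. In sorted bulk RNA, fewer cells of a type and less RNA per cell cannot be told apart.

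Wnt proteins are secreted, lipid-bearing signals. The acyltransferase encoded by Porcn attaches the lipid in the endoplasmic reticulum, and the carrier protein encoded by Wls brings the lipid-bearing Wnt to the cell surface. Outside the cell, Sfrp proteins and Wif1 bind Wnt ligands, while Dkk1 and Dkk2 bind the co-receptors Lrp5 and Lrp6. Dkk3 is a divergent member of the Dickkopf family whose action on Wnt signalling is not settled. In the developing trachea, Wnt ligands from the epithelium act on the surrounding mesenchyme, from which muscle and cartilage form.

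At an adjusted p under 0.05 (edgeR's quasi-likelihood test), 4 of the 8 inhibitor genes were higher in muscle, none was higher in epithelium, and neither gene of Wnt secretion passed. The 4 were Sfrp1, Sfrp2, Dkk2 and Dkk3. Over all 19375 genes tested, 10.7% passed this threshold, 6.58% as higher in muscle and 4.11% as higher in epithelium. With no adjustment 6 members had p under 0.05 in edgeR toward muscle and 0 toward epithelium. The share of all genes under that unadjusted threshold was not counted. These counts, and the unadjusted counts given below for other lists, thus have no base rate beside them. The Wald test of DESeq2 called 5 members higher in muscle and 1, Wls, higher in epithelium, and limma-voom called 4 and 0. Over the 19375 genes, DESeq2 called 1954 higher in muscle and 1585 higher in epithelium, and limma-voom 1590 and 896. The median log2 fold change of muscle over epithelium was 1.36 for the 10 members and -0.10 for all genes tested. In 7 members the groups did not overlap, as in 26.9% of all genes tested.

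**Figure D1:**
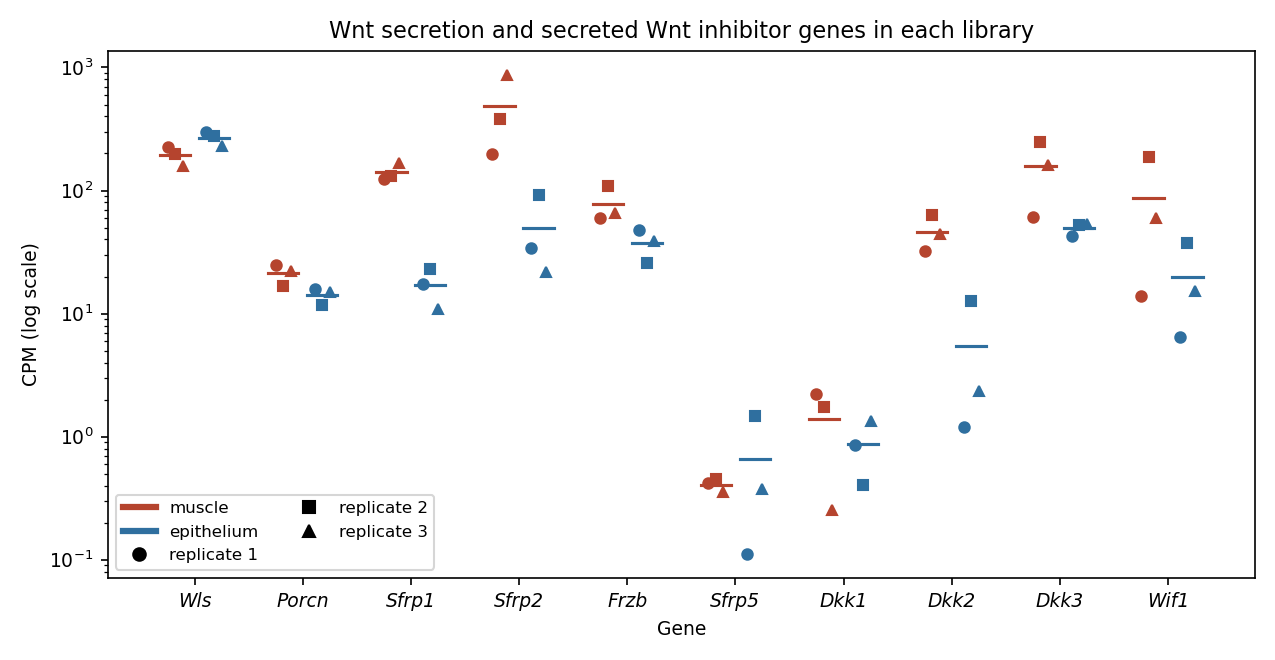
CPM (log scale) of each gene in the 3 muscle and 3 epithelial libraries, with replicates as symbols and the group mean as a line. Sfrp1, Sfrp2, Dkk2 and Dkk3 lie higher in every muscle library than in any epithelial library, and Sfrp5 and Dkk1 lie at about 2 CPM or less throughout.

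The libraries held from 11847432 to 54848820 counts, and levels are given as CPM, counts scaled to the size of the library. Smooth muscle markers separated the tissues, and all 11 listed genes were higher in muscle, among them Actg2, the gene that drives the sorting reporter. Their summed level was 4448 CPM in muscle replicate 2, however, against 18230 and 19670 in muscle replicates 1 and 3. Markers of fibroblasts were also higher in muscle for 6 of 9 genes, with sums from 8175 to 10890 CPM. In epithelium that sum was 2208 CPM in replicate 2 but 373 and 278.5 in replicates 1 and 3. Cartilage markers, of which 5 of 14 tested were higher in muscle, summed to between 1202 and 2000 CPM in muscle and between 392.7 and 768.8 in epithelium. Of the cartilage markers, Acan was at 0 in epithelium replicate 1, Comp in muscle replicate 1 and Matn1 in muscle replicate 3. Of the 12 epithelial markers, among them the sorting antigen Epcam, 11 were higher in epithelium. The sums of all 12 were 14.3 to 35.5 CPM in muscle and 3273 to 4772 in epithelium. Krt5 overlapped between the tissues, with 19.5, 0.33 and 0.53 CPM in epithelium replicates 1 to 3. Of 7 endothelial, 7 neural and 6 immune markers none was called in edgeR. There 1 endothelial gene toward muscle and 1 neural gene toward epithelium had an unadjusted p under 0.05, with no base rate over all genes. Limma-voom called 1 endothelial gene and DESeq2 1 neural gene. The immune sum was 2.81 to 38.5 CPM in muscle and 3.59 to 29.8 in epithelium. Of 6 erythroid markers 4 were too low to test, and their sum did not exceed 7.15 CPM in any library. The 4 mesothelial markers, none of them called, summed to between 2.05 and 16.4 CPM. Genes of olfactory and vomeronasal receptors, which belong to sensory neurons, averaged 0.54 CPM per gene in muscle replicate 2. The average was 0.99 CPM in epithelium replicate 2, 0.41 in epithelium replicate 3 and at most 0.031 in the other libraries. Outside Sfrp5 and Dkk1, each member was above at least 99.2% of these receptor genes in every library.

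Wls was a little lower in each muscle library than in any epithelial one. Muscle replicates 1 to 3 had 227, 197 and 158 CPM of Wls, and the epithelial replicates had 298, 275 and 229 CPM. The highest muscle library and the lowest epithelial library nearly met, without overlapping. The fitted difference of Wls, a log2 fold change of -0.46 ± 0.24 (SE, edgeR adjusted p = 0.34), had a 95% interval from -1.01 to 0.090.

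Porcn lay a little higher in muscle. It had 24.9, 16.6 and 22.4 CPM in muscle replicates 1 to 3 and 15.8, 11.8 and 15.1 CPM in the epithelial replicates. Each muscle library was above each epithelial library, by a margin of 1.05-fold between the nearest pair. For Porcn the log2 fold change was 0.58 ± 0.28 (SE, edgeR adjusted p = 0.29), with an interval from -0.060 to 1.22. The intervals of both genes include 0, and the misses do not show that the levels are equal. On the scale of CPM per kilobase of exon, Wls exceeded Porcn in every library. The ratio was 3.11, 4.04 and 2.40 in the muscle replicates and 6.42, 7.93 and 5.19 in the epithelial replicates. That the ratios of the tissues did not overlap follows from Wls being lower and Porcn higher in every muscle library. The ratio was not tested.

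Sfrp1 encodes a secreted protein with a frizzled-like cysteine-rich domain and varied only 1.35-fold between the muscle libraries. In muscle it had 124, 132 and 167 CPM in the order of the replicates. In the epithelial replicates it had 17.5, 23.1 and 10.9 CPM, so that the lowest muscle library held 5.35 times the highest epithelial one. The fitted fold of Sfrp1 was 8.20, a log2 fold change of 3.04 ± 0.33 (SE, edgeR adjusted p = 0.00080) with an interval from 2.30 to 3.77. Its call held in all 16 alternative fits, at adjusted p up to 0.0063.

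Sfrp2, a close relative of Sfrp1, differed by about the same fold but with a wider spread. The muscle replicates had 197, 379 and 873 CPM, and the epithelial replicates had 33.9, 92.2 and 21.9 CPM. The muscle libraries spanned 4.43-fold and the epithelial ones 4.21-fold, and the groups did not overlap. Sfrp2 had a log2 fold change of 3.30 ± 0.68 (SE, edgeR adjusted p = 0.016), a fold of 9.82. The call of Sfrp2 was lost without epithelium replicate 1 (adjusted p = 0.083) or epithelium replicate 3 (0.060), and without the 3 libraries with the most receptor gene counts (0.063). Its log2 fold change was 2.56 without muscle replicate 3 and 4.03 without epithelium replicate 2. The annotation has a noncoding antisense gene, Gm26771, over exons of Sfrp2, and libraries that keep no strand cannot separate their reads.

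Frzb, also called Sfrp3 and known from developing cartilage, had 60.2, 108 and 65.1 CPM in muscle and 47.5, 25.9 and 38.9 CPM in epithelium, in the order of the replicates. The groups did not overlap, but the nearest libraries differed by only 1.27-fold. Frzb had a log2 fold change of 1.05 ± 0.32 (SE, edgeR adjusted p = 0.075), which did not pass the threshold. DESeq2 gave an adjusted p of 0.041 for it.

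Sfrp5 had few counts in every library, with 11, 9 and 14 counts in the muscle replicates and 6, 22 and 10 in the epithelial replicates. Its highest level, 1.47 CPM in epithelium replicate 2, was above that of 74.7% of the receptor genes in that library. The log2 fold change of Sfrp5 was -0.66 ± 1.92 (SE, edgeR adjusted p = 0.94), and its sign turned in 5 of 16 alternative fits.

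The Dickkopf genes differed among themselves. Dkk1, an inhibitor that is also a known target of Wnt signalling, had 2.21, 1.75 and 0.25 CPM in the muscle replicates and 0.86, 0.40 and 1.35 CPM in the epithelial ones. The groups overlapped, and a log2 fold change of 0.68 ± 1.64 (SE, edgeR adjusted p = 0.93) was not distinguishable from 0. The sign of Dkk1 turned under limma-voom.

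Dkk2, which binds the same co-receptors as Dkk1, had 32.0, 63.1 and 44.2 CPM in the muscle replicates against 1.19, 12.8 and 2.37 CPM in the epithelial replicates. Epithelium replicate 2 stood above the other epithelial libraries, at 27.5% of the muscle mean, whereas replicates 1 and 3 were at 2.56% and 5.10%. Dkk2 had a log2 fold change of 3.13 ± 0.80 (SE, edgeR adjusted p = 0.038). Without epithelium replicate 2 it was 4.72 (adjusted p = 0.00061). The call of Dkk2 was lost without muscle replicate 1 (0.10), muscle replicate 2 (0.10), muscle replicate 3 (0.12) or epithelium replicate 3 (0.18), and with DESeq2's size factors (0.073), library size only (0.11) or no filter (0.079).

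Dkk3 had 61.0, 249 and 161 CPM in the muscle replicates and 42.7, 52.3 and 53.3 CPM in the epithelial replicates. The epithelial libraries were within 1.25-fold of each other, while the muscle libraries spanned 4.07-fold, with replicate 1 close to the epithelium. Its log2 fold change was 1.66 ± 0.44 (SE, edgeR adjusted p = 0.045). The call of Dkk3 held in 5 of 16 alternative fits and in 1 of the 6 that left out a library, the fit without muscle replicate 1 (adjusted p = 0.0047). It was lost without muscle replicate 2 (0.070), muscle replicate 3 (0.089) and epithelium replicates 1 (0.098), 2 (0.11) and 3 (0.17), and also with DESeq2's size factors (0.084), library size only (0.14) and a filter at 10 counts in 3 samples (0.051).

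Wif1, which binds Wnt ligands through its own WIF domain, was the most uneven gene between the muscle libraries. It had 13.9, 189 and 60.2 CPM in muscle and 6.43, 37.6 and 15.2 CPM in epithelium, in the order of the replicates. The muscle libraries spanned 13.5-fold and overlapped the epithelial libraries. The log2 fold change of Wif1 was 2.16 ± 0.89 (SE, edgeR adjusted p = 0.19), with an interval from 0.14 to 4.18, and did not pass the threshold in any fit without 1 library. Its value was 0.93 without muscle replicate 2 and 3.07 without epithelium replicate 2.

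**Figure D2:**
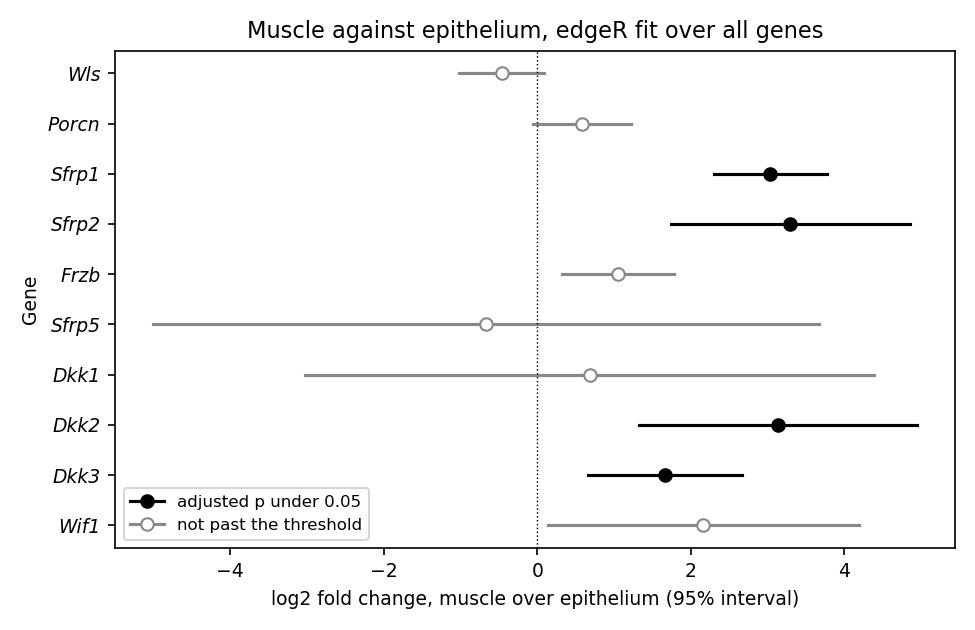
Log2 fold change of muscle over epithelium for each gene with its 95% interval, from the edgeR fit over all genes. Filled black points passed an adjusted p of 0.05; the intervals of Sfrp5 and Dkk1 are the widest, and those of Wls and Porcn lie near 0.

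**Figure D3:**
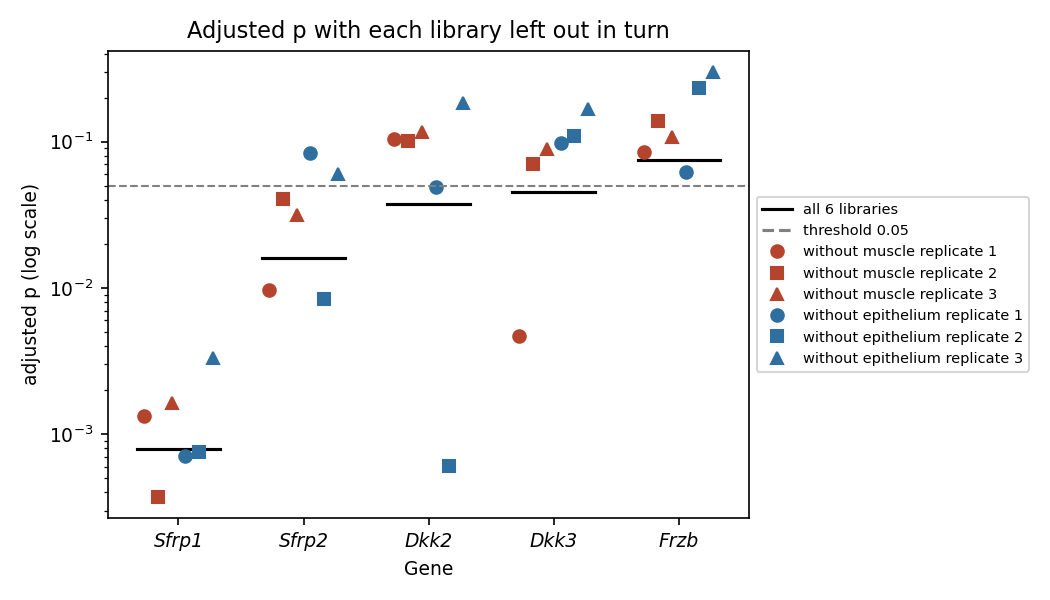
Adjusted p (log scale) of 5 inhibitor genes with all 6 libraries (black line) and with each library left out (symbols), against the threshold of 0.05 (dashed). Every point of Sfrp1 lies below the threshold, while Dkk3 stays below it only without muscle replicate 1 and Dkk2 only without epithelium replicate 1 or 2.

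Marker levels moved with several of these values. Fibroblast markers in epithelium replicate 2 reached 22.9% of their muscle mean, against 3.87% and 2.89% in epithelium replicates 1 and 3. That library had the most Sfrp1, Sfrp2, Dkk2 and Wif1 of the epithelial libraries. It also had the most Sfrp5, but from only 22 counts. Sfrp2 there was at 19.1% of its muscle mean, Wif1 at 42.9% and Sfrp1 at 16.4%. Smooth muscle markers in that library were at 1.23% of their muscle mean, against 0.92% and 0.93% in epithelium replicates 1 and 3. Frzb and Dkk1 went the other way and were lowest in epithelium replicate 2, at 33.3% and 28.6% of their muscle means. Dkk1 had only 6 counts there. Cartilage markers in epithelium replicate 2 were at 45.7% of their muscle mean, against 34.5% and 23.3% in epithelium replicates 1 and 3. Its endothelial, neural, immune, erythroid and mesothelial sums were also the highest among the epithelial libraries. So was its average of the receptor genes, at 0.99 CPM per gene. The part of fibroblast or other RNA, or of raised low counts, in the epithelial values was not tested.

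**Figure D4:**
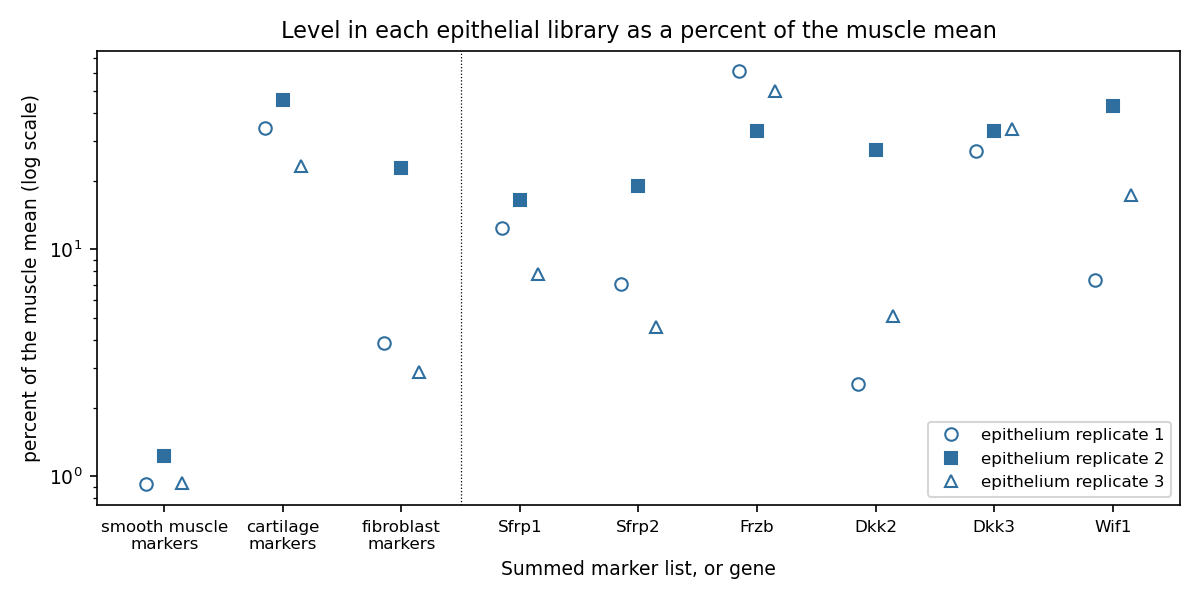
Level in each epithelial library as a percent of the muscle mean (log scale), for 3 summed marker lists at left and 6 inhibitor genes at right. Epithelium replicate 2 (filled) is at 22.9% for fibroblast markers and 27.5% for Dkk2, above both other epithelial libraries, and at 1.23% for smooth muscle markers.

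Among the muscle libraries, replicate 2 had the fewest smooth muscle markers, and it had the most Frzb, Dkk2, Dkk3 and Wif1. Its cartilage sum was the highest, at 2000 CPM against 1202 and 1848 in replicates 1 and 3. Sfrp5 was too low to rank, with 9 counts (0.45 CPM) in replicate 2 against 11 (0.42) and 14 (0.35) in replicates 1 and 3. Its level in replicate 2 lay below the receptor average of 0.54 CPM there. The sums of immune (38.5 CPM against 2.81 and 9.28 in replicates 1 and 3), mesothelial (16.4 against 2.05 and 2.30) and neural markers (44.3 against 24.6 and 20.3) were also highest in muscle replicate 2. So was the average of the receptor genes (0.54 CPM per gene against 0.031 and 0.021). Sfrp1 and Sfrp2 were highest in muscle replicate 3, where the sums of smooth muscle and of fibroblast markers were also highest. Fibroblast markers summed to 8175, 9823 and 10890 CPM in muscle replicates 1, 2 and 3, the same order as Sfrp1 and Sfrp2. Of the listed genes, Col1a1, Col1a2, Col3a1 and Twist2 had that order and the others did not. Dcn (184, 503 and 441 CPM) and Lum (171, 390 and 370) were highest in replicate 2. Tcf21 (214, 110 and 177) was highest in replicate 1, and Pdgfra and Twist1 were lowest in replicate 2. The part of other cell types, or of raised low counts, in these muscle values was not tested. The file header has an identifier row whose meaning it does not state. The identifiers of muscle replicate 2 and epithelium replicate 2 hold a number that looks like a date on day 3, and those of the other 4 libraries a number read here as day 16, which both libraries numbered 3 write without separators. Within the pair with day 3 the log2 ratio of CPM was 2.51 for Sfrp1, 2.04 for Sfrp2, 2.30 for Dkk2, 2.25 for Dkk3, 2.06 for Frzb and 2.33 for Wif1, with 1 library per group and no test. Over the libraries with day 16 the difference of mean log2 CPM was 3.37, 3.93, 4.49, 1.05, 0.54 and 1.55 for the same genes in that order. All 6 genes were thus higher in muscle in both sets. For Frzb, Dkk3 and Wif1 the difference was larger in the day 3 pair, and for Sfrp1, Sfrp2 and Dkk2 in the day 16 libraries. The edgeR fit on the day 16 libraries called Sfrp1, Sfrp2 and Dkk2 and not Dkk3 (adjusted p = 0.16).

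Levels of different genes were compared as CPM per kilobase of merged exons. In muscle, Sfrp2 came first with 224 ± 163 (SD, n = 3), and its lowest library was above the highest of Dkk3, the next gene. Dkk3 (46.7 ± 28.0), Wif1 (36.1 ± 37.3), Sfrp1 (32.2 ± 5.23), Frzb (24.0 ± 8.16) and Wls (22.1 ± 3.98) followed, and each of these overlapped its neighbour in the order. Dkk2 (12.5 ± 4.22) and Porcn (7.10 ± 1.42) came next without overlapping their neighbours. Dkk1 (0.58 ± 0.42) and Sfrp5 (0.21 ± 0.026) were last and overlapped. In epithelium the order was Wls (30.4 ± 3.96), Sfrp2 (22.9 ± 17.5), Dkk3 (14.7 ± 1.74), Frzb (11.6 ± 3.35), Wif1 (8.13 ± 6.63), Porcn (4.75 ± 0.71), Sfrp1 (3.93 ± 1.40), Dkk2 (1.47 ± 1.72), Dkk1 (0.36 ± 0.20) and Sfrp5 (0.34 ± 0.38). There every gene overlapped the next in the order.

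The inhibitors together, Dkk3 included, summed on the same per-length scale, reached 172, 409.6 and 548.7 CPM per kilobase in the muscle replicates. The epithelial replicates reached 50.5, 91.6 and 48.2. Sfrp2 made up 53.2%, 43.0% and 73.9% of that sum in the muscle replicates and 31.2%, 46.8% and 21.1% in the epithelial replicates. Frzb and Dkk3 together with Sfrp2 led the sum in epithelium replicates 1 and 3, where Frzb gave 29.0% and 24.9% and Dkk3 gave 25.2% and 32.9%. Wif1 gave 3.34% of the sum in muscle replicate 1 and 4.52% in replicate 3. Its 77.8 CPM per kilobase in muscle replicate 2 exceeded the 74.0 of Dkk3.

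**Figure D5:**
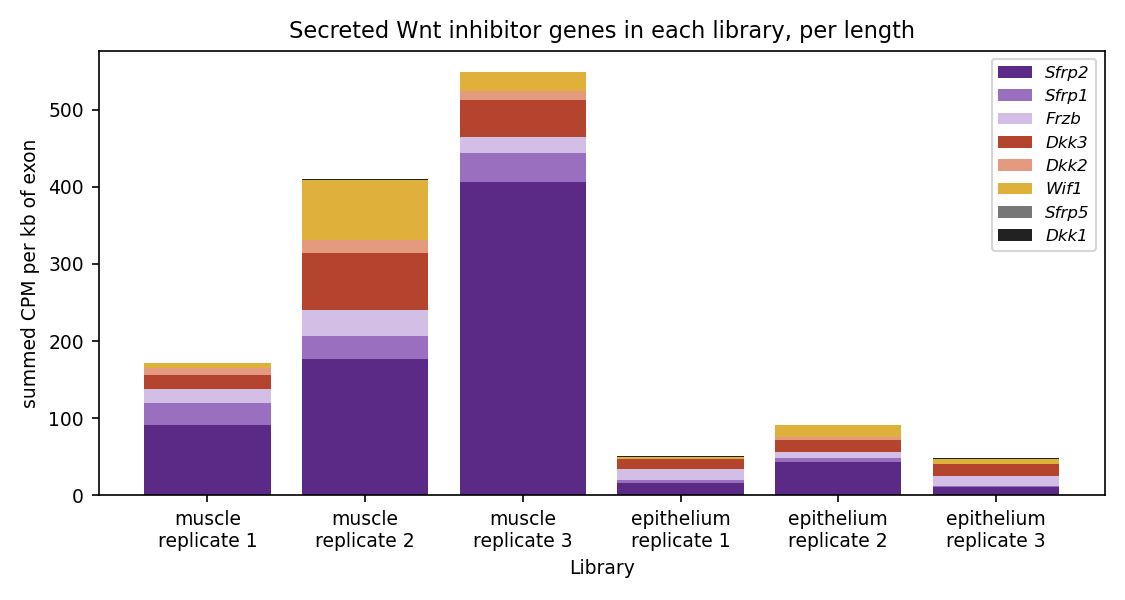
Summed level of the 8 secreted inhibitor genes in each library, in CPM per kilobase of exon, with each gene as a segment. The muscle sums run from 172 to 548.7 and the epithelial sums from 48.2 to 91.6, and Sfrp2 is the tallest segment in each muscle library.

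Promoter sequence from RefSeq (GRCm38.p6) was found for 7 of the 10 genes, all but Porcn, Sfrp1 and Dkk3. The 250 bases before the start are shown for Sfrp2 and Dkk2, which were both called higher in muscle, to set their base composition side by side. Sfrp2 lies on chr3:83766321-83774316 and Dkk2 on chr3:132085292-132180304, both on the plus strand of GRCm38. The windows shown are chr3:83766071-83766320 and chr3:132085042-132085291. Capitals mark matches to the searched motifs.
Sfrp2: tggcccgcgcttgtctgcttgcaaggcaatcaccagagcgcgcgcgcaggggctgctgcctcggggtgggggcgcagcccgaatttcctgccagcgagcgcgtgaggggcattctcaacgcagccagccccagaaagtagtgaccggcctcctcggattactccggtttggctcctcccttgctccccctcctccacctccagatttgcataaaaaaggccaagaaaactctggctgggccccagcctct
Dkk2: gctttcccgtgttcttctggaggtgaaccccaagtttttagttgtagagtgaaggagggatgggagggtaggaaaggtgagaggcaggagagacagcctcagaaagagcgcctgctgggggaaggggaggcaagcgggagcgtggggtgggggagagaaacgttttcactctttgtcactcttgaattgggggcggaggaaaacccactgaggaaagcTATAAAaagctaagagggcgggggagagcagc
The Sfrp2 window holds 16 CpG dinucleotides and the Dkk2 window 7, against a median of 6 over 32817 windows. A TATA box (TATAAA) was found in the Dkk2 window, 32 bases before the start on the strand of the gene. A match anywhere in the 250 bases on either strand was found in 12.4% of all windows. The share with a match at a like position and strand was not counted. Dkk1 and Wif1 also had a match, and the other 4 windows had none. The TCF/LEF core (CTTTGAT), found in 3.21% of all windows, and the CArG box, in 1.47%, were in none of the 7 windows on either strand. The motifs do not overlap each other.

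For the members past the threshold, the genes most alike in pattern were taken by the root mean square difference of centred log2 CPM over the 6 libraries, among 9370 genes. They were Eva1b (0.11) and Fbn1 (0.19) for Sfrp1, Car2 (0.37) and Phlda1 (0.42) for Sfrp2, Matn2 (0.22) and Prrx1 (0.22) for Dkk2, and Fam129a (0.28) and Ccnd1 (0.32) for Dkk3. The nearest genes to Sfrp2 lay further from it than those to the other 3 members did.

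Of the other Wnt genes, 71 in 5 lists, 12 passed the threshold, 6 higher in each tissue. A list of 14 other inhibitors held genes that act outside the cell or at its surface, and also Shisa2 and Shisa3, which act inside it. Of the 14, 2 were higher in muscle and 2 in epithelium. Shisa3, of a family that holds back frizzled receptors inside the cell, had a log2 fold change of 4.46 ± 0.82 (SE, edgeR adjusted p = 0.0091), and Igfbp4, an IGF-binding protein that can also bind Lrp6, one of 2.61 ± 0.41 (adjusted p = 0.0040). Tpbg (-2.36 ± 0.51, edgeR adjusted p = 0.019) and Shisa2 (-1.82 ± 0.41, adjusted p = 0.021) were higher in epithelium. Inhibitors outside the set were thus called in both directions, with a median log2 fold change of -0.10 over the 14.

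None of 10 other genes of the Wnt secretory route, for cargo receptors, retromer subunits and lipid desaturases, passed in edgeR. With no adjustment 2 had p under 0.05 in edgeR toward muscle and 1 toward epithelium. Unadjusted counts, here and for the ligands below, have no base rate over all genes. DESeq2 and limma-voom each called 1 secretory route gene in each direction. The median log2 fold change of the 10 secretory route genes was 0.26. Of 19 Wnt ligand genes, 2 were higher in epithelium, Wnt7b (-9.77, edgeR adjusted p = 9.6e-05) and Wnt4 (-3.19, 0.024). None was higher in muscle in edgeR, where 3 had an unadjusted p under 0.05, while DESeq2 called 1 and limma-voom 2 toward muscle. The median over the ligands was -0.69. Of 18 receptor genes, among them the Dkk receptors Lrp5, Lrp6, Kremen1 and Kremen2, Ror2 was higher in muscle (2.61, edgeR adjusted p = 0.016) and Fzd6 in epithelium (-2.99, 0.0023), with a median of 0.013. Of 10 genes listed as feedback targets of Wnt/beta-catenin signalling, Tcf7 (2.31, edgeR adjusted p = 0.047), Bambi (1.57, 0.0055) and Lef1 (1.40, 0.025) were higher in muscle. Lgr5 (-3.17, 0.0025) was higher in epithelium. The other 6, Axin2 among them, did not pass, and the median over the 10 was 1.14.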

How the data were processed

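The 10 genes, the other Wnt lists and the marker lists were chosen with earlier results of these data known. Per the labels' protocols, tissue was dissociated with TrypLE for 15 minutes, stained for Epcam and sorted, and SMART-Seq cDNA was made into Nextera XT libraries, which carry no molecular identifiers and, in standard use, no strand. The authors deposited raw counts, whole numbers for each gene symbol. The submitters' processing notes name mm10, Trim Galore, Bowtie2, Cufflinks and DESeq, with no roles. The annotation and the counting program are not given in the sources used here. Between 73.8% and 79.6% of counts from 1 to 19 were even, so small counts may stand for fewer read pairs.

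In R 4.3.3, edgeR 4.0.16 was run on the counts (filterByExpr, TMM, robust quasi-likelihood fit, two-sided, Benjamini-Hochberg over 19375 genes, threshold 0.05). The method was tested on simulated data. SE is the absolute log2 fold change divided by the root of F. CPM uses TMM-scaled totals. Exon lengths and positions are from GENCODE M21 (GRCm38). Named were all 10 members, up to 3 called genes per direction in each other Wnt list, and the 2 genes most alike in pattern (average log2 CPM of at least 4, pseudocount 0.5 CPM) to each called member. The alternatives included DESeq2 1.42.0 and limma 3.58.1. The smallest p of an exact permutation test of 3 against 3 libraries is 0.1.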

Additional observations from a re-analysis of the deposited data

How the results depend on the processing

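The directions of Wls, Porcn, Sfrp1, Sfrp2, Frzb, Dkk2, Dkk3 and Wif1 held in all 16 alternative fits. The log2 fold change of Sfrp5 turned positive under limma-voom (0.54), with the replicate block (0.0020), in the day 16 libraries (0.59), without epithelium replicate 2 (0.75; from -1.14 over the fits without 1 library) and without the 3 libraries with the most receptor gene counts (1.58), and that of Dkk1 turned negative under limma-voom (-0.11). The cause was not tested. Of 4 members called higher in muscle, 2 were called with DESeq2's size factors, 2 with library size only, 2 without those 3 libraries and 1 at an adjusted p under 0.01. Leaving out 1 library gave 1 to 3, with 2 without muscle replicate 2, muscle replicate 3 or epithelium replicate 1, and 1 (Sfrp1) without epithelium replicate 3. DESeq2 called 1 member higher in epithelium. Over all genes 2071 calls became 3539 with DESeq2, 3178 with the identifier day as a term, 983 at an adjusted p under 0.01, and 1169 to 2573 without 1 library. The other Wnt genes called, 12, became 22 with DESeq2, 19 in the day 16 libraries, 6 at an adjusted p under 0.01, and 7 to 18 without 1 library. The fit without the 3 libraries with the most receptor gene counts was added after seeing the data and leaves 1 epithelial library, assumed to vary like the muscle libraries. In it the log2 fold change of Frzb was 0.22 and that of Sfrp2 3.79 (edgeR adjusted p = 0.063). With library size only the median over all genes moved from -0.10 to -0.33, and 42.0% of calls, in place of 61.5%, were higher in muscle.

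The replicate numbers were not taken to pair the libraries. Across 19375 genes, the correlation of deviations from the group means was 0.57 between both libraries with number 1, 0.66 with number 2 and -0.42 with number 3, and 3 of 6 libraries correlated best with their own number. With the replicate block 3 members were called higher in muscle and 2418 genes in all. Sfrp2 (adjusted p = 0.057, edgeR) and Dkk3 (0.063) did not pass with the block and Wif1 did (0.014). Sfrp5 and Dkk1 had only 6 to 22 and 6 to 58 counts per library, and their intervals were the widest of the set.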
